A study of Mus musculus with 6 samples.

Results

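The Schwann cell and myelin genes described here were 8 gene symbols, found by name among the 44788 symbols of a bulk RNA-seq count table of mouse tail tendon. They comprised 4 genes of the myelin sheath, *Mbp*, *Pmp22*, *Prx* and *Mag*, and 4 other Schwann cell genes, *Sox10*, *S100b*, *Scn7a* and *Ngfr*. No measured value entered the rule, but the members were chosen with earlier results of these data known. All 8 symbols were present and passed the filter on low counts. The table held 3 libraries of wild-type (WT) tendon and 3 of *Mkx*-/- tendon, the latter from mice that lack *Mkx*, the gene of the tendon transcription factor Mohawk. Per the labels, both groups were C57BL/6 mice aged 3 weeks with no treatment named. The text of the study does not give the same age. The genotype label names no promoter or Cre, so the loss of *Mkx* is not tied to 1 cell type. RNA was taken from minced tendon, no sorting of cells is named, and total RNA was sequenced on the Ion Proton. The labels do not say whether the libraries of a group came from separate animals, so p-values measure the spread between these libraries.

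Schwann cells are the glia of peripheral nerves, and they reach tendon along the nerve fibres that enter it. Under the control of *Sox10* and *Egr2*, a myelinating Schwann cell wraps an axon in layers of membrane held together by proteins such as myelin basic protein (*Mbp*) and PMP22 (*Pmp22*), while periaxin (*Prx*) and *Mag* act at the outer and inner faces of the sheath. Non-myelinating Schwann cells ensheath thin axons without myelin and are known for *Ngfr* and *Scn7a*, and *S100b* is made by both kinds. The comparison therefore asks whether the genes of the sheath differed between genotypes in step with the genes that mark the cell.

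Each library held 10835070 to 14160301 counts. *Mkx* had 1825, 1381 and 1685 reads in WT and 620, 589 and 491 in *Mkx*-/- libraries (log2 fold change -1.60, edgeR adjusted p = 0.00183), so the labels held, although reads of *Mkx* remained. WT replicate 3 was the only library with reads of the Y-linked *Ddx3y* (301) and had 1 read of *Xist*, whereas the other 5 libraries had 0 reads of *Ddx3y* and 1289 to 1866 of *Xist*. *Mkx*-/- replicate 3 stood apart in some genes of smooth muscle and pericytes. *Myh11*, the smooth muscle myosin, had 2548 counts there and 25 to 39 in each of the other 5 libraries. *Col1a1*, *Col1a2* and *Sparc* took 42.0% to 48.5% of the counts of a WT library and 28.3% to 34.8% of those of an *Mkx*-/- library. Levels below are CPM, counts relative to library size, after TMM scaling, which corrects the library sizes for such shifts in composition. In whole tissue, fewer cells of a type and less RNA per cell cannot be told apart.

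The 8 genes together took 0.446%, 0.446% and 0.504% of all reads in WT libraries, and in *Mkx*-/- libraries 0.680%, 1.24% and 1.41%. The 4 myelin genes alone took 0.440% to 0.497% in WT and 0.673% to 1.39% in *Mkx*-/- libraries. Per kilobase of exon, the order of the WT levels was *Pmp22* (952 CPM per kb), *Mbp* (250), *Prx* (117), *Mag* (16.8), *S100b* (13.5), *Sox10* (10.1), *Scn7a* (2.45) and *Ngfr* (1.43), each a mean of 3 libraries. Among neighbours in this order, *Mag* and *S100b* overlapped, with 12.9 to 19.2 and 11.5 to 15.4 CPM per kb over the WT libraries, and *Scn7a* (2.01 to 3.02) overlapped narrowly with *Ngfr* (0.869 to 2.07). *S100b* and *Sox10* (8.16 to 11.3) did not overlap, by a small margin. Dividing by the longest coding transcript in place of all exons raised *Mbp*, whose symbol pools 16 annotated transcripts, to 439 CPM per kb and left the order as it was.

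The bases before the start sites are shown to set the myelin genes beside the other Schwann cell genes at the sequence level. They are the 250 bases upstream of the most upstream RefSeq start of each of the 6 members with an entry used here (build GRCm38.p6), written 5′ to 3′ on the strand of the gene. Capitals mark matches, on either strand, to ACAAAG or ACAATG (words bound by SOX proteins), GNGTGGGNG (bound by EGR proteins), CCAAT and TATAAA. None of these words contains another.
Pmp22, chr11:63128732-63128981, plus strand: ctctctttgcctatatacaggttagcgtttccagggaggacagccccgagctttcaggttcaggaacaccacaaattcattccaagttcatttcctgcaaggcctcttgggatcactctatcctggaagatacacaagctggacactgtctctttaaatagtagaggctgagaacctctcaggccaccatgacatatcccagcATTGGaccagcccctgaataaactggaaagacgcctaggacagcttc
Prx, chr7:27499074-27499323, plus strand: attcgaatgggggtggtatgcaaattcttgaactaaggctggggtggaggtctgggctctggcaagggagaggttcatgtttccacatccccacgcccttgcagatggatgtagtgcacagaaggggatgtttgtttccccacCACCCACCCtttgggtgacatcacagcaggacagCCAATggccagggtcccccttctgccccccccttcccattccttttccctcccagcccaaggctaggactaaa
Mag, chr7:30914923-30915172, minus strand: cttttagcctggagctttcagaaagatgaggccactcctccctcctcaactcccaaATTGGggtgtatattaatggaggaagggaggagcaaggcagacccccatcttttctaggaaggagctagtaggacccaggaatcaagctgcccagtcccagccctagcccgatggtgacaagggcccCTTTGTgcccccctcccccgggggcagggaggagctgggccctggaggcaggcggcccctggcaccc
S100b, chr10:76253586-76253835, plus strand: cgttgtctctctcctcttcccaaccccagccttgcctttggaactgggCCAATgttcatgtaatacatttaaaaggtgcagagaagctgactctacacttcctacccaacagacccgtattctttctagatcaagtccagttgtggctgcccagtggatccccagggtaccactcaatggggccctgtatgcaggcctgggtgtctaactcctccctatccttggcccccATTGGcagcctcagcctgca
Scn7a, chr2:66784911-66785160, minus strand: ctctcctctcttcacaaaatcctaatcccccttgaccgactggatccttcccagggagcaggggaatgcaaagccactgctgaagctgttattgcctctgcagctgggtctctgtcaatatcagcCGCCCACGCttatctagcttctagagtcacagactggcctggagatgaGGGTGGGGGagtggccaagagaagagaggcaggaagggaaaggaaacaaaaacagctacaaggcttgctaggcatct
Ngfr, chr11:95587699-95587948, minus strand: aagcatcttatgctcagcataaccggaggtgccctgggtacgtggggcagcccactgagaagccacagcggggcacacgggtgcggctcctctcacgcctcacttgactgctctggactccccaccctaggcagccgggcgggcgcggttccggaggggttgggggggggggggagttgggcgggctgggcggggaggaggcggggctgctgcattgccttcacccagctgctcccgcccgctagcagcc

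Of the 6 genes, *Prx* and *Scn7a* held the EGR word, which 12.7% of 32851 mouse windows of the same length hold. The SOX word ACAAAG was present at 2 of 3 *Mag* starts, whose windows overlap, and at no start of the other 5 genes (16.5% of windows), and ACAATG at none (10.7%). CCAAT was present upstream of *Prx* and *S100b*, at 2 of 4 *Pmp22* starts and at 2 of 3 *Mag* starts, and not upstream of *Scn7a* or *Ngfr* (33.8% of windows). TATAAA was found upstream of none of the 6 (12.4%). No word was thus held by all of *Pmp22*, *Prx* and *Mag* and by none of the other 3 genes shown. The windows of *Mbp*, also a myelin gene, and of *Sox10* were not among the 6. A match describes letters only, and its absence concerns this window alone.

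**Figure D1:**
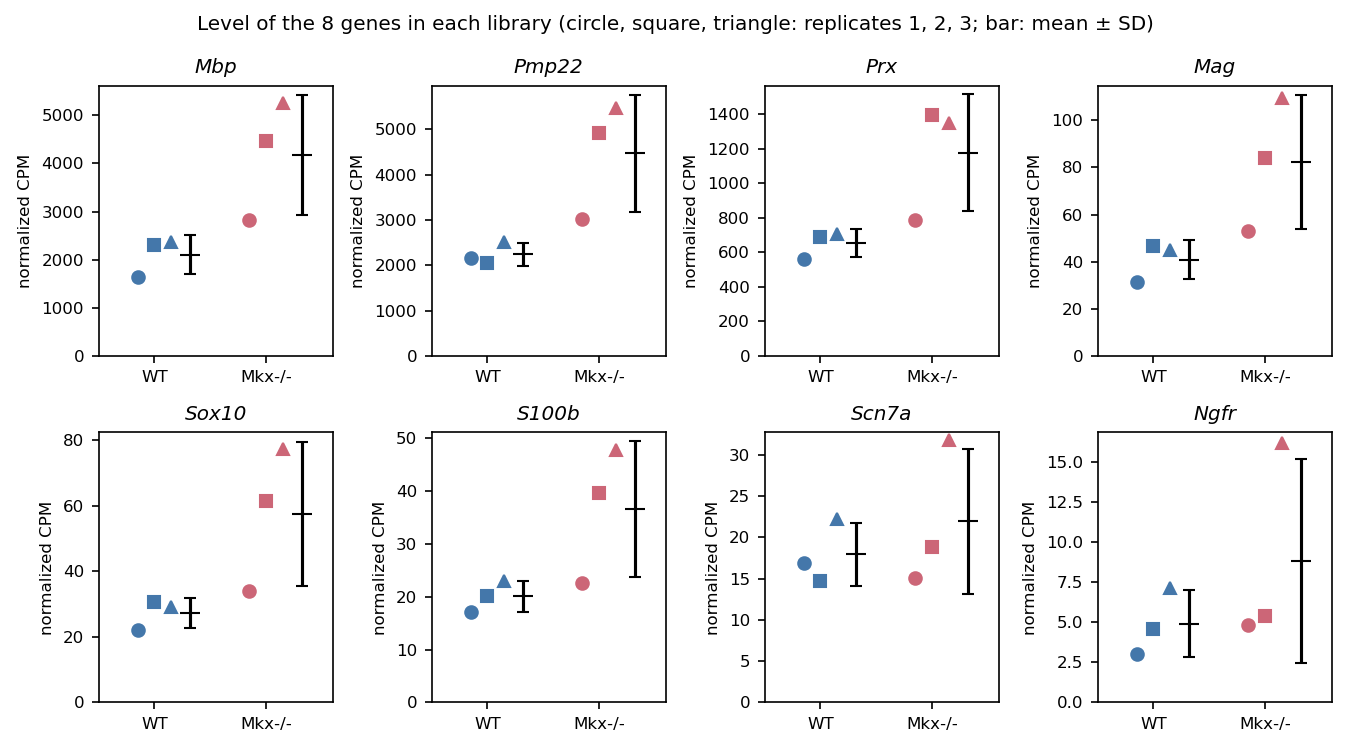
Normalized level (CPM, linear axis from 0) of the 8 genes in each WT (blue) and *Mkx*-/- (red) library, with 1 point per library and the group mean ± SD as a black bar. The 4 myelin genes and *Sox10* have every *Mkx*-/- point above every WT point, and *S100b*, *Scn7a* and *Ngfr* overlap.

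All 8 genes had a higher mean in *Mkx*-/- tendon, and 5 of 8 (62.5%) were higher in every *Mkx*-/- library than in every WT library, where 14.6% of the 14550 genes tested were. None passed the test. To be called, a gene needed both an adjusted p under 0.05 in edgeR's quasi-likelihood fit and a difference of over 1 on the log2 scale, in either direction, and 0 of 8 members were called, against 1.89% of tested genes called higher and 1.33% called lower. At an adjusted p under 0.05 of any size it was also 0 of 8 (3.18% of tested genes, higher). At an unadjusted p under 0.05, 6 of 8 members (75%) were higher, against 12.5% of tested genes, with *Scn7a* and *Ngfr* the exceptions. DESeq2 gave 6 of 8 a higher level with an adjusted p under 0.05, as it did 4.72% of its tested genes, and called 1, *Sox10*, where it called 2.38% of its tested genes higher. The median log2 fold change was 0.99 over the 4 myelin genes and 0.86 over the other 4, and -0.0037 over all tested genes. Without *Mkx*-/- replicate 3 these medians were 0.77 for the myelin genes and 0.35 for the other 4.

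*Mbp*, which encodes the protein that closes the cytoplasmic faces of compact myelin, was at 1643, 2304 and 2363 CPM in WT and at 2822, 4457 and 5259 CPM in *Mkx*-/- libraries. The groups did not overlap, and their means were 2104 ± 400 and 4179 ± 1242 CPM (SD, n = 3 each). The log2 fold change was 0.99 ± 0.26 (SE), with an edgeR adjusted p of 0.0678. *Mbp* lies on chromosome 18 of mm9, at 82644538 to 82755029 on the plus strand, and the symbol also covers the Golli transcripts known from cells that make no myelin.

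*Pmp22*, a membrane protein of compact myelin that fibroblasts are also known to make, was at 2157, 2049 and 2517 CPM in WT libraries. In *Mkx*-/- libraries it was at 3012, 4926 and 5484 CPM, again without overlap. The means were 2241 ± 245 and 4474 ± 1296 CPM (SD, n = 3 each). At 1.0 ± 0.24 (SE), its log2 fold change had the lowest adjusted p of the 8 genes (edgeR, 0.0520). The gene lies on chromosome 11 of mm9, at 62942484 to 62973049 on the plus strand.

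*Prx* encodes periaxin, which ties the outer Schwann cell membrane to the basal lamina through the dystroglycan complex. It was at 559, 690 and 708 CPM in WT and at 788, 1397 and 1350 CPM in *Mkx*-/- libraries. The lowest *Mkx*-/- library was thus 1.11 times the highest WT library. On the log2 scale the difference was 0.85 ± 0.23 (SE; edgeR adjusted p = 0.0726), the lowest of the 4 myelin genes. *Prx* lies on chromosome 7 of mm9, at 28284343 to 28305233 on the plus strand, and overlaps *Gm15541* on the other strand, as *Mbp* does *Rpl21-ps8*, so reads of these pairs may not be told apart.

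*Mag*, an adhesion protein of the membrane next to the axon, was the least abundant of the myelin genes. It was at 31.2, 46.6 and 44.9 CPM in WT and at 52.9, 84.1 and 110 CPM in *Mkx*-/- libraries, with no overlap. The log2 fold change was 1.01 ± 0.27 (SE; edgeR adjusted p = 0.0678), past the fold a call needed and short of its adjusted p. *Mag* is on the minus strand of chromosome 7 of mm9, at 31684202 to 31699851. Across the 4 myelin genes the log2 fold changes spanned 0.85 to 1.01, a range narrower than the SE of any of them.

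*Sox10*, the transcription factor that Schwann cells need at every stage, was at 22.1, 30.7 and 29.1 CPM in WT libraries. It was at 33.9, 61.5 and 77.3 CPM in *Mkx*-/- libraries, all above WT. The means were 27.3 ± 4.56 and 57.6 ± 22.0 CPM (SD, n = 3 each). Its log2 fold change was 1.08 ± 0.28 (SE), the highest of the 8 genes, with an edgeR adjusted p of 0.0660 and a DESeq2 adjusted p of 0.00363. *Sox10* is on the minus strand of chromosome 15 of mm9, at 78985343 to 78994920.

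*S100b*, a calcium-binding protein of Schwann cells that chondrocytes and adipocytes are also known to make, was at 17.1, 20.1 and 22.9 CPM in WT. In *Mkx*-/- libraries it was at 22.5, 39.6 and 47.6 CPM, so that *Mkx*-/- replicate 1 fell just under WT replicate 3. Its log2 fold change was 0.87 ± 0.26 (SE; edgeR adjusted p = 0.0905). *S100b* lies on chromosome 10 of mm9, at 75716598 to 75723904 on the plus strand, and overlaps *Dip2a* on the other strand. *Dip2a* had a WT mean of 68.4 CPM and an *Mkx*-/- mean of 61.7 CPM (log2 fold change -0.15, edgeR adjusted p = 0.555). Whether the counting used strand is not given in the sources used here.

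*Scn7a*, which encodes a sodium-channel relative that senses sodium, was at 16.9, 14.7 and 22.2 CPM in WT and at 15.1, 18.9 and 31.8 CPM in *Mkx*-/- libraries. The groups overlapped throughout, apart from *Mkx*-/- replicate 3. The log2 fold change was 0.29 ± 0.28 (SE; edgeR adjusted p = 0.591), with a 95% interval from -0.35 to 0.92, which spans 0. Without *Mkx*-/- replicate 3 the log2 fold change was -0.077 (edgeR adjusted p = 0.902). *Scn7a* is on the minus strand of chromosome 2 of mm9, at 66511482 to 66622971.

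*Ngfr*, the p75 receptor for neurotrophins, was at 2.99, 4.61 and 7.13 CPM in WT and at 4.85, 5.41 and 16.2 CPM in *Mkx*-/- libraries. Again only *Mkx*-/- replicate 3 lay above the WT range. The log2 fold change was 0.84 ± 0.50 (SE; edgeR adjusted p = 0.366), with a 95% interval from -0.30 to 1.99. Without *Mkx*-/- replicate 3 it was 0.065. *Ngfr* had the fewest reads of the 8 genes, with 38 in the lowest library (exact 95% Poisson interval 26.9 to 52.2, counting error only). It is on the minus strand of chromosome 11 of mm9, at 95430132 to 95449049.

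The library on which both values rest, *Mkx*-/- replicate 3, was also the one with high levels of several mural cell markers, though not of all. *Rgs5*, a pericyte gene, was at 41.8 CPM there and at 3.62 to 7.21 CPM in the other 5 libraries, and *Acta2*, smooth muscle actin, at 396 against 50.2 to 101 CPM. *Pdgfrb* and *Abcc9*, of the same list, were at 141 and 2.22 CPM there, within their WT ranges of 121 to 226 and 1.34 to 2.88 CPM. The 8 mural markers summed to 339 to 396 CPM in WT libraries and to 315, 337 and 952 CPM in *Mkx*-/- replicates 1, 2 and 3. Their part in the levels of *Scn7a* and *Ngfr* was not tested.

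**Figure D2:**
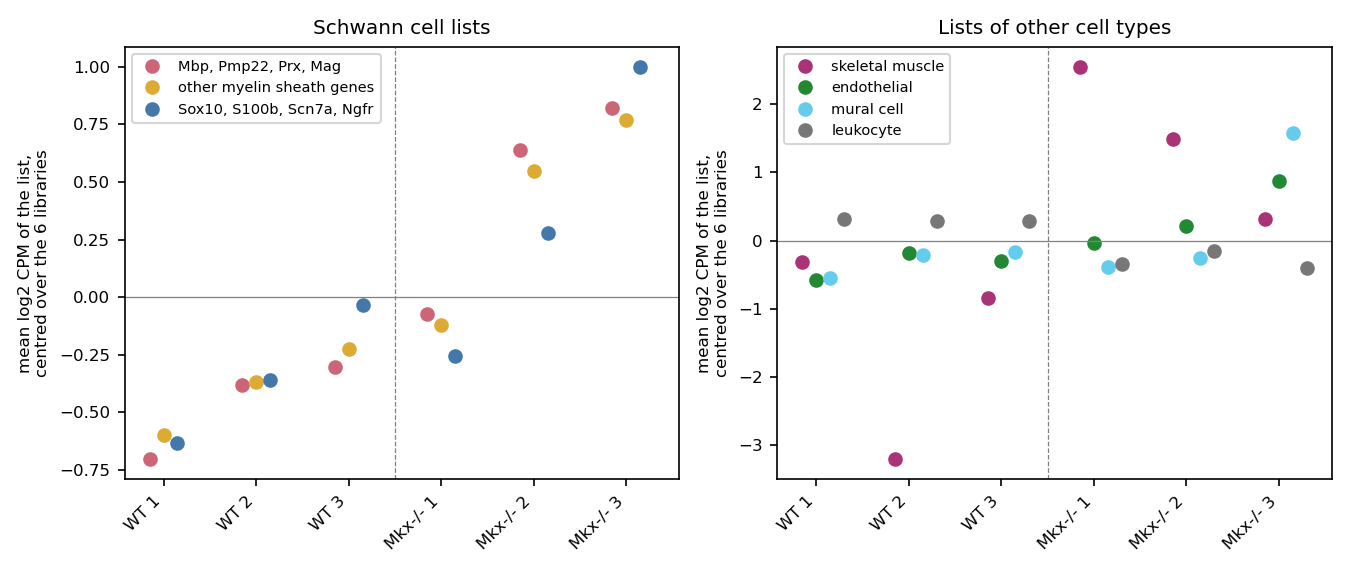
Mean log2 CPM of each gene list in each library, centred over the 6 libraries, for Schwann cell lists (left) and lists of other cell types (right), with 1 point per list and library. The myelin members run from -0.70 to -0.30 in WT libraries and from -0.075 to 0.82 in *Mkx*-/- libraries, and the skeletal muscle list is highest in *Mkx*-/- replicate 1.

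For the 8 genes, the *Mkx*-/- libraries spread more widely than the WT libraries. *Mkx*-/- replicate 1 was the lowest of the 3 for 8 of 8 members, as it was for 33.3% of all tested genes. For *Mbp* it was 1.34 times the WT mean, against 2.12 and 2.5 times for replicates 2 and 3. The same figures for *Sox10* were 1.24, 2.25 and 2.83 times. The coefficient of variation over the 3 *Mkx*-/- libraries was 28.7% to 34.5% for the myelin genes and 35% to 72.4% for the other 4, against 10.9% to 20.6% and 14.5% to 42.4% over the WT libraries. With *Mkx*-/- replicate 1 left out, 6 of 8 members were called, the 4 myelin genes with *Sox10* and *S100b*, against 1.88% of the genes tested called higher in that fit. With WT replicate 3, the library with *Ddx3y* reads, left out, 0 were called, and 7 of 8 were higher in every *Mkx*-/- library, where 18.0% of the genes tested were in that comparison of 2 with 3 libraries.

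Markers of other cell types differed in the library in which they were highest. The 16 skeletal muscle genes summed to 107 to 455 CPM in WT libraries and to 3285, 1575 and 625 CPM in *Mkx*-/- replicates 1, 2 and 3. The myelin members summed to 4391 to 5634 CPM in WT and to 6675, 10863 and 12202 CPM in the same *Mkx*-/- libraries, so the library highest in muscle RNA was the lowest of its group in myelin RNA. The 14 endothelial genes summed to 89.2 to 111 CPM in WT and to 154, 170 and 236 CPM in *Mkx*-/- libraries. Removing the muscle genes before the fit left 0 members called, as in the main fit. That removal leaves the reads of the 8 genes as they are. The parts of muscle RNA and of endothelial RNA in the levels of the 8 genes were therefore not tested.

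To compare the sheath with the cell, each gene was divided by *Sox10* within its own library, a ratio that scaling between libraries does not touch. The *Mbp* to *Sox10* count ratio was 74.2, 75.0 and 81.3 in WT libraries and 83.3, 72.4 and 68.0 in *Mkx*-/- libraries. On the log2 scale the difference was -0.047 for *Mbp*, -0.052 for *Pmp22*, -0.19 for *Prx* and -0.042 for *Mag*, with overlapping groups in all 4. Exact two-sided permutation tests over the 6 libraries gave p = 0.6, 0.8, 0.3 and 0.7 in that order, in a design whose smallest p is 0.1. Leaving out 1 library at a time kept the *Mbp* difference between -0.13 and 0.016 and the *Prx* difference between -0.27 and -0.063.

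Of *S100b*, *Scn7a* and *Ngfr*, *Scn7a* had the largest difference in this ratio. Larger ones were found in the further lists of Schwann cell genes described below, such as -1.34 for *Ncam1* and -1.28 for *Matn2* on the log2 scale, and 6 of 14 other Schwann cell markers had a lower ratio without overlap. *Scn7a* was at 0.765, 0.479 and 0.763 reads per *Sox10* read in WT libraries and at 0.446, 0.307 and 0.411 in *Mkx*-/- libraries. Every *Mkx*-/- ratio was lower, with a log2 difference of -0.77 (exact permutation test, p = 0.1, the smallest the design allows; 0.7 after Benjamini-Hochberg adjustment over 7 ratios). Such a lower ratio without overlap was also found for 52.5% of the 14549 other tested genes, with *Sox10* itself higher. Without any 1 library the log2 difference was between -1.0 and -0.61. For *S100b* it was -0.20 (exact permutation p = 0.2) and for *Ngfr* -0.31 (exact permutation p = 0.5), both with overlap.

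**Figure D3:**
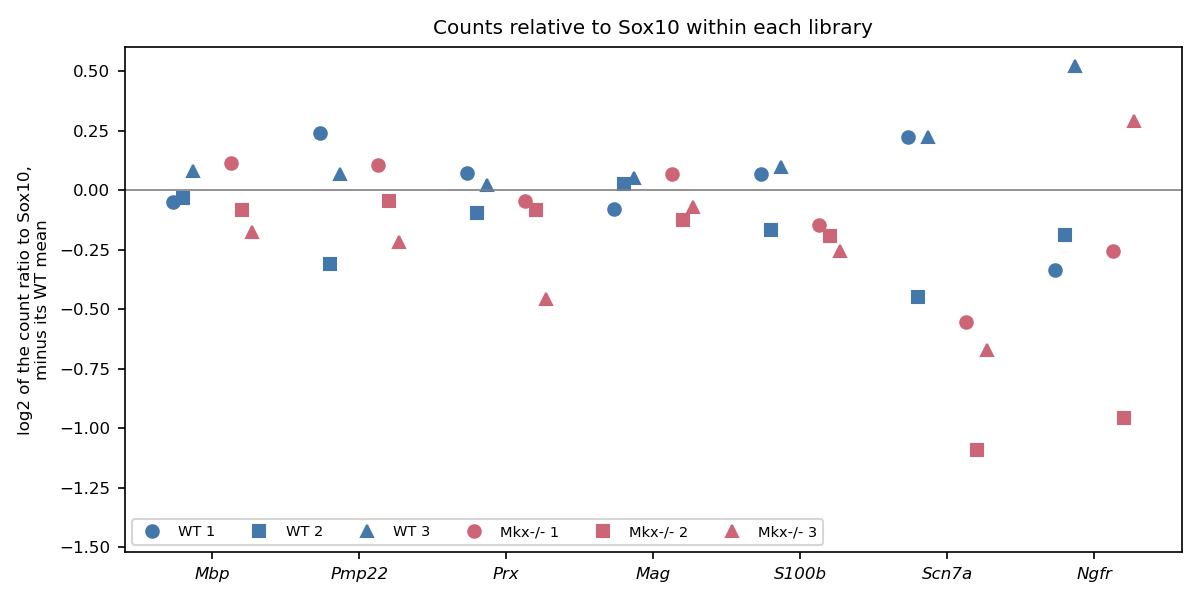
Log2 of the count ratio to *Sox10*, minus its WT mean, for the other 7 members, with 1 point per WT (blue) or *Mkx*-/- (red) library and the WT mean as the line at 0. The myelin genes overlap between genotypes, and for *Scn7a* the 3 *Mkx*-/- points lie below the 3 WT points.

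The further genes of the myelin sheath were a list of 18, all of which were tested. Of these, 5 were called higher (1.89% of all tested genes) and 0 lower, and 6 were higher with an adjusted p under 0.05 (3.18%). In 12 of the 18 every *Mkx*-/- library was above every WT library (14.6%), and the median log2 fold change was 0.91. *Gal3st1*, which makes the myelin lipid sulfatide, rose from 18.0 ± 2.18 to 41.7 ± 9.28 CPM (SD, n = 3 each; log2 fold change 1.21 ± 0.19 SE, edgeR adjusted p = 0.0119). *Fa2h*, which hydroxylates the fatty acids of myelin lipids, rose by 1.03 on the log2 scale (edgeR adjusted p = 0.0306). *Gjb1*, the connexin of Schwann cell gap junctions, rose by 1.21 on the log2 scale (edgeR adjusted p = 0.0391), and *Pllp*, the myelin proteolipid plasmolipin, by 1.03 (0.0260). The fifth call was *Cldn19*, a tight-junction claudin, which rose by 1.01 (edgeR adjusted p = 0.0493).

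*Cnp*, an enzyme of non-compact myelin, had a WT mean of 228 ± 37.2 CPM and an *Mkx*-/- mean of 415 ± 105 CPM (SD, n = 3 each), with a log2 difference of 0.87, and was not called (edgeR adjusted p = 0.0576). *Mpzl1*, which is made in many tissues, was the 1 gene of the 18 with a negative value (-0.19) and is named after its values were seen.

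**Figure D4:**
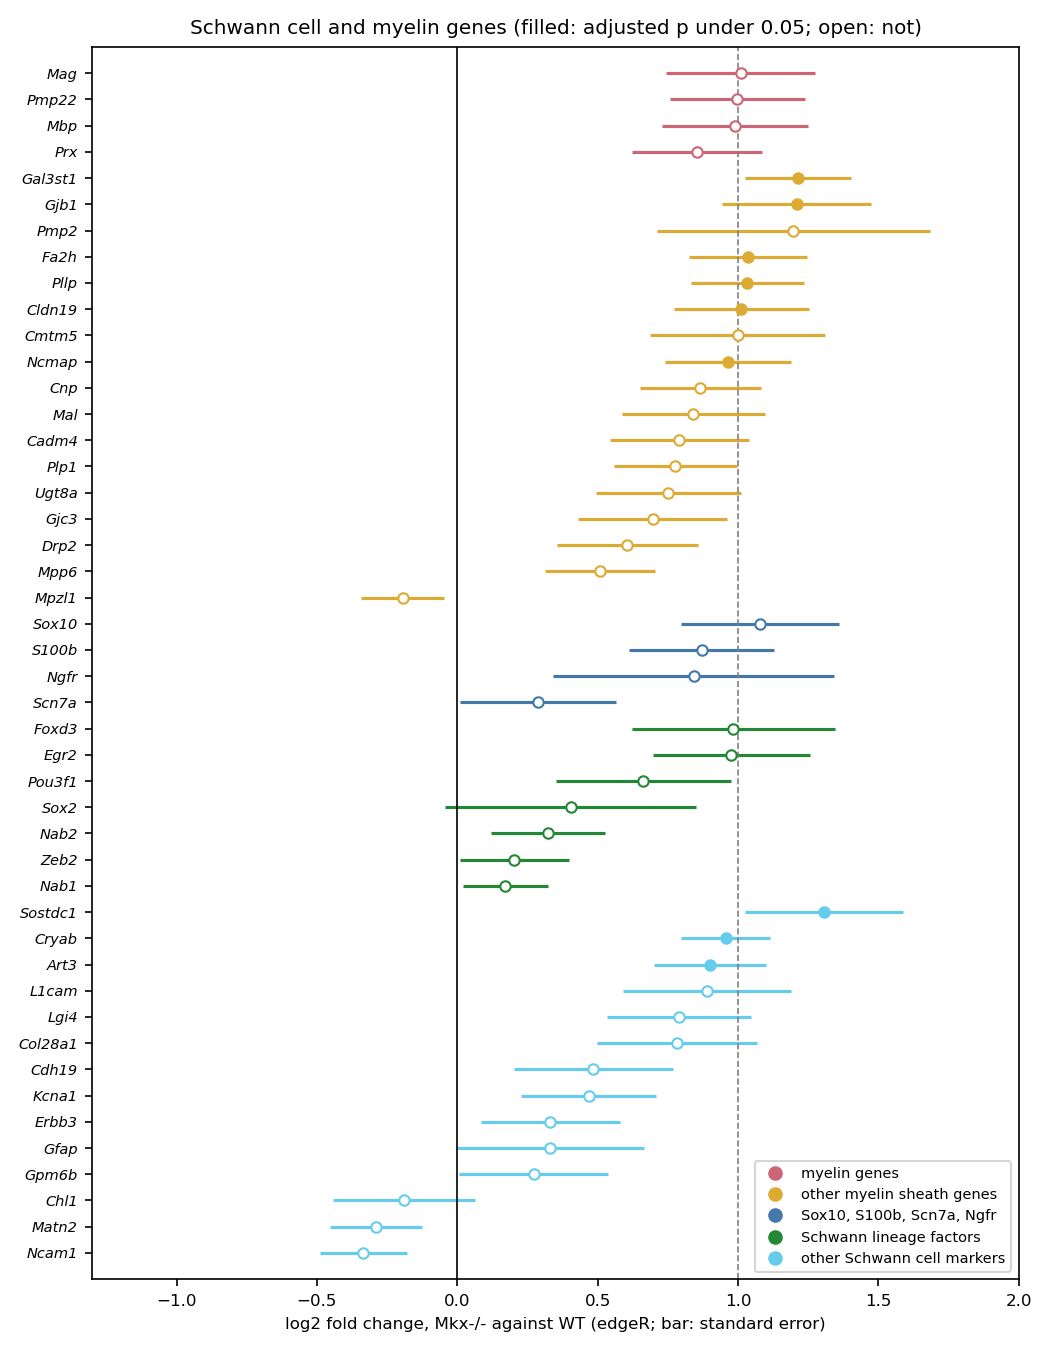
Log2 fold change of *Mkx*-/- against WT (edgeR, bar: standard error) for the 8 members and tested genes of 3 further Schwann cell lists, filled where the adjusted p was under 0.05. The sheath genes lie near 1, all but *Mpzl1* above 0, and the genes for transcription factors and other Schwann cell markers spread from -0.33 (*Ncam1*) to 1.31 (*Sostdc1*).

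Other transcription factors of the Schwann cell lineage, with co-regulators, formed a further list. Of 10 listed, 7 had enough reads to be tested, with a median log2 fold change of 0.40. Of these, 0 were called higher (1.89% of all tested genes) or lower (1.33%), and DESeq2 called 0. At an unadjusted p under 0.05, 2 were higher (12.5% of all tested genes). *Egr2*, the factor that turns on myelin genes, was at 9.69, 10.3 and 13.9 CPM in WT and at 14.6, 20.6 and 31.5 CPM in *Mkx*-/- libraries. Every *Mkx*-/- library was thus above the WT range, with a log2 fold change of 0.98 ± 0.28 (SE; edgeR adjusted p = 0.0823). *Nab1* and *Nab2*, its co-regulators, were at 0.17 and 0.32 on the log2 fold change scale, with edgeR adjusted p of 0.557 and 0.398.

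Of 16 other Schwann cell markers, 14 were tested, with a median of 0.48. Of these, 1 was called higher (1.89% of all tested genes) and 0 lower (1.33%). *Sostdc1*, a secreted BMP and Wnt antagonist, rose from 8.38 ± 2.38 to 20.7 ± 6.93 CPM (SD, n = 3 each; log2 fold change 1.31, edgeR adjusted p = 0.0369). *Cryab*, a small heat-shock protein also made in muscle, rose by 0.96 (edgeR adjusted p = 0.0157) and *Art3* by 0.90 (0.0416), both under the fold a call needed. *Lgi4*, a secreted Schwann cell ligand needed for myelination, had means of 37.0 (WT) and 63.9 CPM (*Mkx*-/-, log2 fold change 0.79, edgeR adjusted p = 0.112). Values were positive for 11 of the 14 and negative for 3, among them *Ncam1* (-0.33) and *Matn2* (-0.29). *Matn2*, the most abundant of the list, had means of 795 (WT) and 650 CPM (*Mkx*-/-, edgeR adjusted p = 0.343).

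*Adam22*, the receptor of Lgi4, was the 1 called gene among 12 tested genes of contact between axon and Schwann cell, and it was lower. Of all tested genes, 1.33% were called lower and 1.89% higher. *Adam22* was at 25.5, 15.7 and 19.7 CPM in WT and at 7.51, 6.18 and 6.10 CPM in *Mkx*-/- libraries. The groups did not overlap, and it fell by 1.63 on the log2 scale (edgeR adjusted p = 0.00446). *Cadm3*, an adhesion protein of the axon, rose by 0.81 (edgeR adjusted p = 0.0247), under the fold of a call, and the median of the 12 was 0.45.

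*Ngfr* and *Scn7a* could be set beside their families. Of 8 tested neurotrophin ligands and receptors, 0 were called higher (1.89% of all tested genes) and 1 lower (1.33%), with a median of 0.0099. *Ntf3*, the ligand neurotrophin-3, fell from 3.25 ± 0.634 to 1.09 ± 0.395 CPM (SD, n = 3 each; log2 fold change -1.59, edgeR adjusted p = 0.0413). *Sorcs2*, a co-receptor of p75, had a log2 value of -0.68 (edgeR adjusted p = 0.0479). Values were positive for 4 of the 8 and negative for 4. Among the positive ones, *Ntrk2* was at 0.37 and *Rtn4r* at 0.55 (edgeR adjusted p = 0.222 and 0.338). Of 5 tested sodium channel subunits, 0 were called in edgeR and 0 by DESeq2, with a median of 0.66. At an unadjusted p under 0.05, 4 of the 5 were higher, against 12.5% of all tested genes. Of 7 S100 genes beside *S100b*, 0 were called (2 higher and 1 lower at an unadjusted p under 0.05, 0 by DESeq2), with a median of 0.33.

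Markers of cells that share genes with Schwann cells were few. The oligodendrocyte genes *Mog* and *Olig2* had 0 reads in all 6 libraries and *Olig1* had 1, and the 3 of 7 listed genes that could be tested summed with the rest to 5.53 to 7.85 CPM in WT and 7.79 to 16.6 CPM in *Mkx*-/- libraries. The melanocyte genes *Tyr*, *Oca2* and *Gpr143* had 0 reads in all libraries, and the 9 of that list summed to 8.34 to 22.3 CPM in WT and 9.07 to 13.1 CPM in *Mkx*-/- libraries. Of the 9, 2 could be tested and 0 were called, *Pmel* at 0.63 and *Mitf* at -0.59 on the log2 scale (edgeR adjusted p = 0.335 and 0.454). The tissue itself matched its label, with *Col1a2* at a mean of 257911 CPM in WT.

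The genes whose centred log2 levels over the 6 libraries were closest to the mean of the 4 myelin members were taken from the 10287 genes whose mean level reached 5 CPM. In order of the root-mean-square difference, 7 of the 8 nearest were *Cldn19* (0.056), *5930403L14Rik* (0.057), *Sh3tc2* (0.066), *Art3* (0.074), *Smco3* (0.074), *Sema3g* (0.078) and *Mmp15* (0.079). For the mean of the other 4 members, 7 of the 8 nearest were *Hmgcs1* (0.059), *L1cam* (0.083), *Plxnb3* (0.093), *Stard13* (0.093), *Sc4mol* (0.093), *Col28a1* (0.12) and *Pcdh1* (0.13). *Sh3tc2* is known from myelinating Schwann cells, and *L1cam* is an adhesion protein of non-myelinating ones. The printed genes of the lists do not overlap, and the libraries' points share depth and scaling.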

How the data were processed

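Total RNA of tail tendon was extracted with TRIzol and prepared with the Ion Total RNA-Seq Kit v2. The authors trimmed adaptors, dropped reads of low quality, aligned the rest to mm9 with MapSplice and deposited raw counts per gene symbol. The counting program and its strand setting are not given in the sources used here. All 6 columns were matched to samples by name, and 0 were left unused. From the deposited counts, TMM-scaled CPM and fold changes were obtained in R 4.3.3 from edgeR 4.0.16, using filterByExpr, a quasi-likelihood fit on genotype and Benjamini-Hochberg adjustment over 14550 genes. Calls used the thresholds of the study's methods, whose tool was DESeq2, run here (1.42.0) as an alternative. Limma 3.58.1 is loaded by edgeR, and the fit was tested on simulated data. Ratios to *Sox10* used counts within a library and exact permutation tests. Positions and exon lengths are those of GENCODE for mm9, and promoter sequences those of RefSeq (GRCm38.p6), with 6 of 8 members printed.

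The members and gene lists were chosen with earlier results of these data known. Of each list, at most the 4 genes with the lowest p and the 2 most abundant were named, with the 8 genes most alike to the myelin members and to the others. *Dip2a*, *Cldn19* as the fifth call, *Mpzl1*, *Ncam1*, and genes that mark single libraries or other cell types were named for counts or after their values were seen. No 2 libraries of a group agreed within sampling noise. The alternatives were other scalings, filters, a robust fit, a replicate block, removal of skeletal muscle genes and each library left out. A few genes of these lists are not reported here.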

Additional observations from a re-analysis of the deposited data

How the results depend on the processing

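Over all alternatives, 189 values were kept, 16 counts or medians moved, 18 values newly passed the threshold and 1 reversed. A fold change was kept if its direction and side of the threshold held. Counts were kept within a set ratio of the main value, and medians within the SD between libraries. In the *Mkx*-/- against WT test, 275 genes were called higher and 193 lower, and these became 711 higher with library size only, and 541 higher and 322 lower with a filter of 1 count in any library. Leaving out 1 library gave 103 to 321 higher and 112 to 248 lower. The counts fell most without WT replicate 2 or 3 or *Mkx*-/- replicate 3, and for higher genes also without *Mkx*-/- replicate 2.

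The number of members called higher, 0 as reported, was 1 with DESeq2, 6 with library size only, 4 with the filter of 1 count, and 0 to 6 with 1 library left out, the 6 coming without *Mkx*-/- replicate 1. With library size only, the log2 fold changes were 1.28 for *Mbp*, 1.27 for *Pmp22*, 1.13 for *Prx*, 1.30 for *Mag*, 1.37 for *Sox10* and 1.15 for *S100b*, on a median of all genes that moved to 0.25. Relative to that median they were 1.03, 1.02, 0.88, 1.05, 1.12 and 0.90. With the filter of 1 count they were 1.0 for *Mbp*, 1.01 for *Pmp22*, 1.02 for *Mag* and 1.09 for *Sox10*, and with DESeq2 1.07 for *Sox10*. Fits with 1 library left out gave 0.79 to 1.18 for *Mbp*, 0.82 to 1.19 for *Pmp22*, 0.71 to 1.05 for *Prx*, 0.75 to 1.22 for *Mag*, 0.81 to 1.32 for *Sox10*, 0.64 to 1.10 for *S100b*, -0.077 to 0.47 for *Scn7a* and 0.065 to 1.20 for *Ngfr*. The reversal to -0.077 for *Scn7a* came without *Mkx*-/- replicate 3. The median of the 4 other members ranged from 0.35, without that library, to 1.10. The cause was not tested.

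After the mean of its genotype was subtracted from each gene's log2 level, same-numbered WT and *Mkx*-/- libraries correlated at 0.026, -0.21 and 0.30. The highest value, 0.40, was between WT replicate 1 and *Mkx*-/- replicate 2, so the numbers were not taken to pair the samples. With the replicate block, 1 member was called, *Sox10* at 1.01 (edgeR adjusted p = 0.0468). At this depth and with 3 libraries a group, *Ngfr* and *Scn7a* have intervals that include 0.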

Other observations

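Genes of the axon and of the nerve sheath, which lie beside Schwann cells in a nerve, were also measured. Of 13 axon and neuron genes, 5 had enough reads to be tested, with a median log2 fold change of 1.22. Of these, 1 was called higher (1.89% of all tested genes) and 0 lower (1.33%). *Uchl1*, a ubiquitin hydrolase abundant in neurons, was at 3.39, 4.32 and 3.12 CPM in WT and at 10.4, 13.2 and 13.6 CPM in *Mkx*-/- libraries. It rose by 1.79 ± 0.20 on the log2 scale (SE; edgeR adjusted p = 0.00283), and all 3 *Mkx*-/- libraries lay close together, *Mkx*-/- replicate 1 included. *Prph*, the intermediate filament peripherin, had 4 to 14 reads in WT libraries and 27 to 32 in *Mkx*-/- libraries (log2 fold change 1.71, edgeR adjusted p = 0.0513).

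Of 7 genes of the perineurium and endoneurium, 5 were tested, with a median of 0.68. Of these, 1 was called higher (1.89% of all tested genes) and 0 lower (1.33%). *Moxd1*, a monooxygenase-like gene, was at 6.46, 9.91 and 11.1 CPM in WT and at 20.2, 26.3 and 25.1 CPM in *Mkx*-/- libraries, and it rose by 1.38 on the log2 scale (edgeR adjusted p = 0.0113). *Slc2a1*, the glucose transporter of the perineurial barrier, was at 9.38 to 11.5 CPM in WT and at 12.5, 22.2 and 30.1 CPM in *Mkx*-/- libraries (log2 fold change 1.03, edgeR adjusted p = 0.0796). *Etv1* was the 1 gene of the 5 with a negative value, at 3.94 to 6.41 CPM in WT and 1.76 to 3.33 CPM in *Mkx*-/- libraries. It did not overlap and was not called (log2 fold change -0.86, edgeR adjusted p = 0.146). Among cell types outside the nerve, 10 of 10 leukocyte genes had negative values with a median of -0.55, and 1 was called lower, the macrophage gene *Emr1*. Of 8 mural cell genes, 0 were called (2 higher at an unadjusted p under 0.05, 1 called by DESeq2), with a median of 0.64. Of 5 tested keratinocyte genes, 0 were called (4 higher at an unadjusted p under 0.05, 1 called by DESeq2), with a median of 1.83. Of 8 adipocyte genes 2 could be tested, and they went opposite ways. *Plin4* was called higher, and *Lipe* was lower without overlap and not called (log2 fold change -0.94, edgeR adjusted p = 0.0839). Of 16 skeletal muscle genes 4 were called higher (median 2.93), of 14 endothelial genes 2 (0.95), of 9 cartilage genes 3 with 1 lower (0.88), and of 9 tendon genes 1 (-0.42). The shares of all tested genes were 1.89% called higher, 1.33% called lower and 12.5% higher at an unadjusted p under 0.05. DESeq2 called 2.38% of its tested genes higher.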
